A study of Mus musculus with 6 samples.

Results

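Primary cilium genes are described here in corneal keratocytes, the resident cells of the corneal stroma, with and without ablation of Ptch1. They were chosen by name as 49 genes of intraflagellar transport, the BBSome, the transition zone and ciliary signaling. All 49 were found among the 17606 genes of the deposited table, and all 49 passed the filter on low counts that kept 13888 genes. Keratocytes were sorted by flow cytometry from corneas of Prrx1-CreERT;Ptch1 f/f mice (Ptch1-ablated, 3 libraries) and of control mice (control, 3 libraries). The age given for all mice is 10 weeks. All received 3 doses of tamoxifen, with 1 month given as the treatment time, so tamoxifen was common to both groups. Whether 10 weeks was the age at tamoxifen or at collection is not settled here. The alleles that the control mice carried are not given in the sources used here. The Cre was a knock-in at Prrx1, a gene of mesenchymal cells, and per the study it recombines in corneal endothelial cells and other ocular mesenchyme as well as in keratocytes. The floxed Ptch1 line had been backcrossed to C57BL/6, and the study describes the libraries as biological replicates without saying whether animals were pooled.

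The primary cilium is a single, non-motile, microtubule-based projection that grows from the mother centriole of most vertebrate cells. Cargo is carried along it by intraflagellar transport (IFT) trains, in which IFT-B moves outward with kinesin-2 and IFT-A moves back with cytoplasmic dynein 2, while the BBSome shuttles membrane receptors. A transition zone at the base acts as a gate, and the EvC zone just above it holds a complex that passes on the signal of Smoothened. Ptch1, the Hedgehog receptor, resides in the cilium and keeps Smoothened out of it in the absence of ligand, so these genes encode the compartment in which Hedgehog signaling is transduced.

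Libraries held 20258439 to 24788063 counts and 14310 to 15631 genes with a count, the lowest number of genes being in control replicate 1. In control replicates 1 to 3 Ptch1, the targeted gene, had counts of 172, 104 and 369, and of 4348, 5194 and 6230 in Ptch1-ablated replicates 1 to 3. The count is taken over the whole gene and does not tell a deleted transcript from an intact one. Gli1, a transcriptional target of Hedgehog signaling, had 1, 20 and 36 counts in control and 3022, 3042 and 3098 in Ptch1-ablated keratocytes. Summed counts per 1000000 (CPM) of the keratocyte markers were 98400 to 111760 in control and 58639 to 77281 in Ptch1-ablated libraries. Of the 8 markers tested, 6 fell at an adjusted p of 0.05 or less by edgeR, beside 3.8% of all tested genes.

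A motif that is known to be bound by RFX factors, the X-box, was searched in the promoters because it marks many ciliary genes. RefSeq promoter windows, taken here as the 250 bases before the gene start, were found for 43 of the 49 cilium genes, and Efcab7, Ift122, Ift80, Ift81, Iqce and Tmem67 had none. The X-box, searched on both strands as GTNNCC followed by GNAAC with 2 or 3 bases between them, had a match in 6 of 43 cilium genes (14.0%), in 961 of 27025 genes with a window (3.56%) and in 436 of 10992 tested genes (3.97%). The matches are printed 5′ to 3′ in the direction of the gene with the matched bases in capitals, to show the motif as it stands in each promoter. The strand given is that of the gene. The Tctn2 match lies on the opposite strand, so its capitals are the reverse complement of the motif. Where Ift22 and Ift57 held a second match, the one nearer the gene start is shown. Coordinates are of GRCm38.p6 and belong to the RefSeq windows alone.
Bbs7 (chr3:36613489-36613518, minus strand, 121 bases before the start): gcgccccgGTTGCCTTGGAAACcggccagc
Ift22 (chr5:136908109-136908138, plus strand, 33 bases before the start): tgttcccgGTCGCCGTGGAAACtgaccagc
Ift57 (chr16:49699226-49699254, plus strand, 60 bases before the start): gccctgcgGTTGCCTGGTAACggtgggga
Mks1 (chr11:87853183-87853212, plus strand, 24 bases before the start): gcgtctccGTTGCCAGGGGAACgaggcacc
Tctn2 (chr5:124598679-124598708, plus strand, 62 bases before the start): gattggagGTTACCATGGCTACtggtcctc
Tctn3 (chr19:40612351-40612379, minus strand, 140 bases before the start): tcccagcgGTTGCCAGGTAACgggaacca

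None of these 6 genes passed the test between the groups. Their log2 fold changes (Ptch1-ablated over control) were -0.11 for Bbs7, -0.09 for Ift22, -0.20 for Ift57, 0.00 for Mks1, 0.00 for Tctn2 and -0.47 for Tctn3. The 9-base GLI consensus GACCACCCA, searched on both strands, had a match in 0 of the 43 windows and in 69 of the 27025 (0.255%). This says only that these letters are not in the windows. The windows of the cilium genes had a median GC content of 58.4%, and those of the tested genes 59.6%.

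Across the 49 cilium genes, 1 passed an edgeR adjusted p of 0.05, where 8.48% of all tested genes did. It was Evc2, which was higher in Ptch1-ablated keratocytes, also passed a fold of 2 (5.49% of tested genes, 3.36% higher and 2.13% lower), and encodes a subunit of the Ellis-van Creveld (EvC) complex. At an unadjusted p under 0.05 there were 4 (Evc2, Tctn1, Bbs4 and Bbs2), or 8.16% of the cilium genes beside 20.6% of all tested genes. DESeq2 also called Evc2 alone. The IFT-B, IFT-A, motor, membrane import and basal body groups thus held no gene under an unadjusted p of 0.05. In 12 of the 49 (24.5%) the CPM of the groups did not overlap, 6 of them higher (Bbs5, Bbs12, Arl6, Cc2d2a, Evc2 and Efcab7) and 6 lower (Ift20, Bbs2, Bbs4, Tctn1, Cep290 and Tmem216) in Ptch1-ablated keratocytes. Over all tested genes the groups did not overlap in 27.4% (14.1% higher and 13.3% lower). These separations are in TMM-scaled CPM and depend on the scaling. In the deposited TPM the groups overlapped for Ift20, Bbs2, Bbs4, Tctn1 and Cep290. They stayed apart in TPM for Tmem216 and for the 6 higher genes.

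The fitted log2 fold changes ran from -0.99 (Bbs1) to 1.25 (Evc2), with a median of -0.09 beside 0.00 for all tested genes. Of the 49 genes 32 were fitted below 0 (65.3%, beside 49.6% of all tested genes). With scaling by library totals alone the median of all tested genes shifted to 0.17, that of the cilium genes to 0.07, and 22 of the 49 were below 0, beside 36.7% of all tested genes. That scaling shifts every gene alike, and the median of the cilium genes minus that of all genes was -0.10 in both fits. For 21 of the 49 (42.9%) the whole 95% interval lay within a 2-fold change either way, beside 44.3% of tested genes. For the other genes a change of 2-fold was within the interval. Leaving out 1 library moved the fitted value by over 1.5 times or changed its sign in 40 of the 49, but not for Evc2, Arl6 or Tctn1. The summed CPM of the 49 genes was 1243 to 1281 in control and 1137 to 1201 in Ptch1-ablated libraries, ranges that did not overlap. With library totals alone they were 1153 to 1242 and 1181 to 1290 and overlapped. In RNA of a sorted population, fewer cells of a type and less RNA per cell cannot be told apart.

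**Figure D1:**
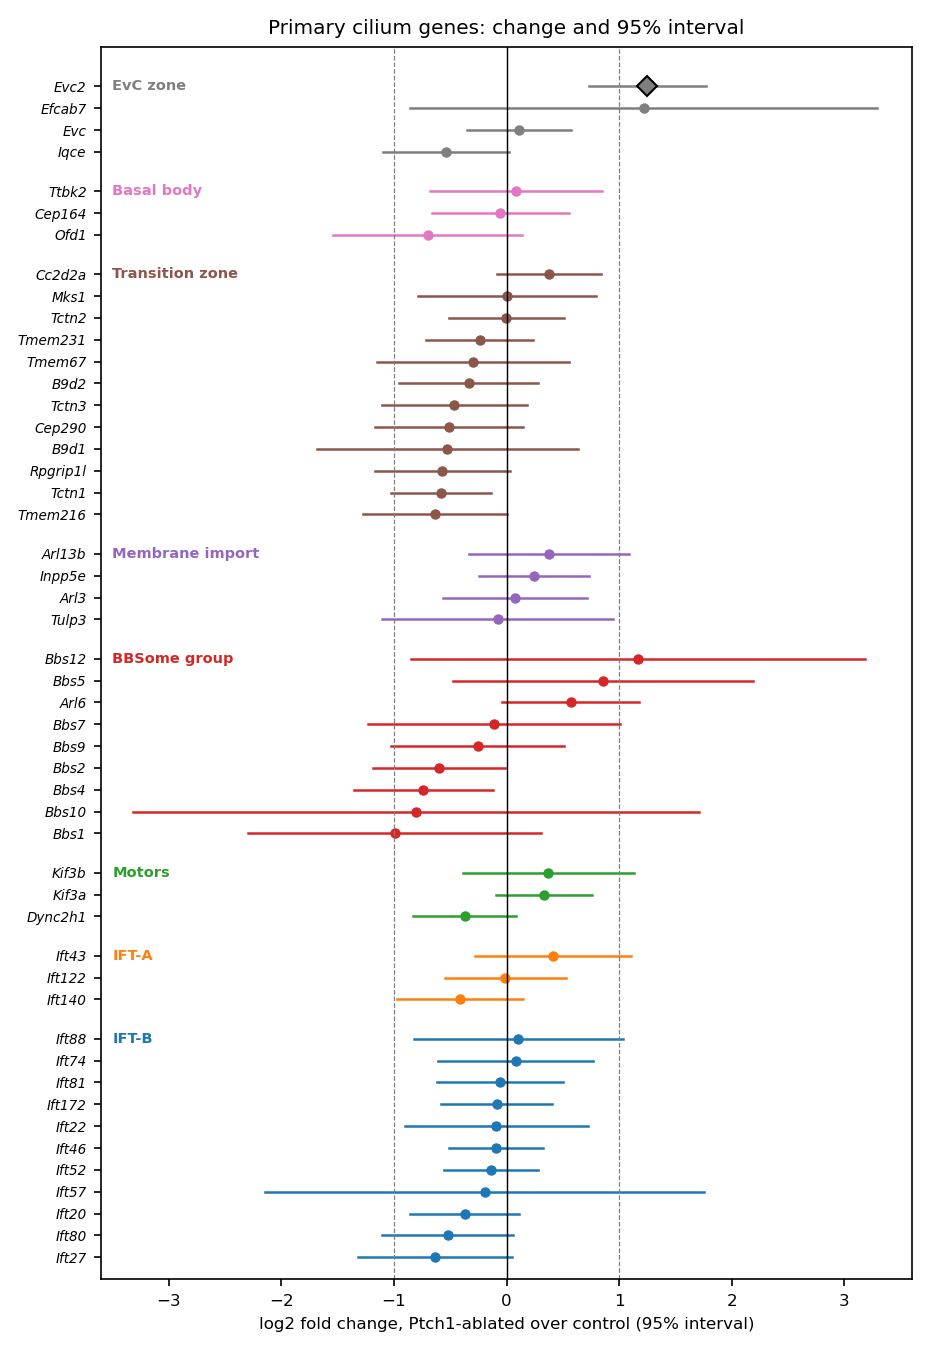
Fitted log2 fold change of each of the 49 primary cilium genes (Ptch1-ablated over control, x axis) with its 95% interval, ordered by role. The diamond marks Evc2 (1.25), the gene past an adjusted p of 0.05, and dashed lines mark 2-fold.

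Cilium genes were expressed at moderate levels. In transcripts per 1000000 (TPM), which are per length and can be set side by side between genes, the mean over the 6 libraries ran from 2.24 TPM (Ift57) to 69.8 TPM (Arl3), with a median of 18.4 TPM. These means lay between percentiles 32.4 and 87.1 of all genes in the table, and 37 of the 49 were above the median gene. Mean counts were 53.7 (Ift57) to 1383 (Tctn1). Precision differed with the counts. The median SE of the log2 fold change was 0.91 for the 4 genes with a mean under 100 counts, 0.37 for the 16 with 100 to 400 and 0.25 for the 29 with at least 400.

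**Figure D2:**
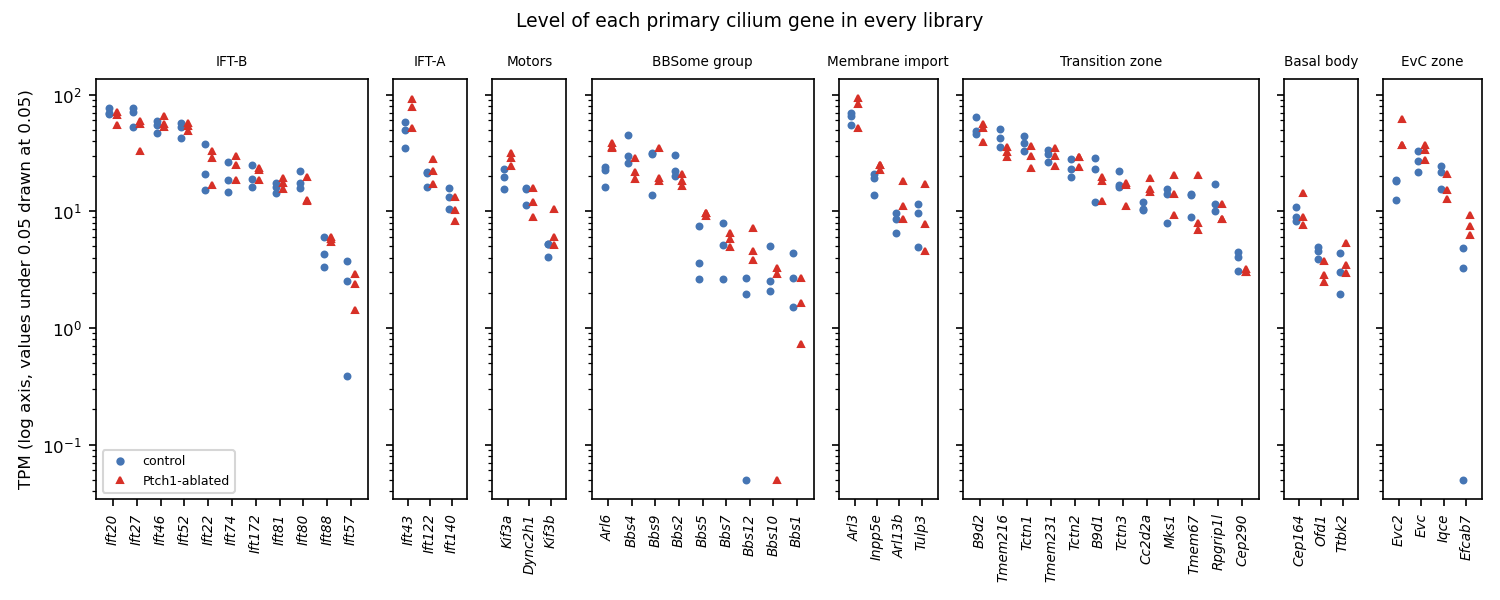
TPM (log axis) of each cilium gene in every library, grouped by role and ordered by mean level, with control libraries as circles and Ptch1-ablated libraries as triangles. Means span 2.24 TPM (Ift57) to 69.8 TPM (Arl3), and values under 0.05 TPM are drawn at 0.05.

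The EvC zone held the gene that changed. In control replicates 1 to 3 Evc2 had counts of 538, 686 and 793, and of 1472, 2324 and 1623 in Ptch1-ablated replicates 1 to 3. Each Ptch1-ablated library was above each control library, the highest being Ptch1-ablated replicate 2. The level was 31.8 ± 6.22 CPM in control and 75.6 ± 20.1 CPM in Ptch1-ablated keratocytes (SD, n = 3 per group). The fitted log2 fold change was 1.25 ± 0.24 (SE, 95% interval 0.73 to 1.77, adjusted p by edgeR = 0.00586). The call held in each of the 15 alternative fits, with adjusted p-values of 1.04e-05 to 0.0295 and log2 fold changes of 1.01 to 1.44.

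Evc, the partner of Evc2 in the complex and its neighbour in the genome, had 918, 989 and 1452 counts in control and 1507, 1107 and 1473 in Ptch1-ablated keratocytes. The groups overlapped, and the log2 fold change was 0.11 ± 0.21 (SE, 95% interval -0.35 to 0.58, adjusted p by edgeR = 0.838), with the whole interval inside 2-fold. As a ratio of TPM, Evc2 over Evc was 0.580, 0.682 and 0.553 in control replicates 1 to 3 and 1.00, 2.24 and 1.12 in Ptch1-ablated replicates 1 to 3. In control keratocytes Evc2 was thus the less abundant of the pair in every library, and in Ptch1-ablated keratocytes it was at or above Evc in every library.

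In RefSeq (GRCm38.p6) both genes start on chromosome 5 and point away from each other, Evc from position 37336881 on the minus strand and Evc2 from position 37338478 on the plus strand, 1597 bases apart. The 250 bases before each start are printed because the pair shares this interval while 1 of its genes passed the test. They are given 5′ to 3′ in the direction of the gene, with no motif in capitals, since neither the GLI consensus nor the X-box had a match. The Evc window has 60.8% GC and the Evc2 window 57.2%, with 11 CpG each.
Evc (chr5:37336882-37337131, minus strand): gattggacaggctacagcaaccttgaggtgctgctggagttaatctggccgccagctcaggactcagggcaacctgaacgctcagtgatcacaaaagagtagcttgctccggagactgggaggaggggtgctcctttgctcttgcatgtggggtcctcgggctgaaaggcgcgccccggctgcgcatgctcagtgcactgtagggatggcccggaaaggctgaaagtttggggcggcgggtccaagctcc
Evc2 (chr5:37338228-37338477, plus strand): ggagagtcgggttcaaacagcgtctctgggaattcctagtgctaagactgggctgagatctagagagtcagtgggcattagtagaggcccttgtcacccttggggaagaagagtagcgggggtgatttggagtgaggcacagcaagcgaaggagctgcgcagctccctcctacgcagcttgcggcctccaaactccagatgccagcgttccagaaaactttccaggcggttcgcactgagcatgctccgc

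The anchors of the complex were measured as well. Iqce, which with Efcab7 tethers EVC and EVC2 at the ciliary base, had 1168, 877 and 756 counts in control and 904, 558 and 722 in Ptch1-ablated keratocytes, with a log2 fold change of -0.54 ± 0.26 (SE, adjusted p by edgeR = 0.261). Efcab7 had 1, 65 and 112 counts in control and 117, 184 and 166 in Ptch1-ablated keratocytes. Every Ptch1-ablated library was above every control library, yet control replicate 1 was under the limit of 3 counts and the spread was wide. The log2 fold change was 1.22 ± 0.95 (SE, adjusted p by edgeR = 0.535), and 0.64 without control replicate 1. Summed over the 4 EvC zone genes the level was 120 to 138 CPM in control and 160 to 177 CPM in Ptch1-ablated libraries. Without Evc2 the sums were 95.8 to 101.6 and 78.6 to 107.8 CPM and overlapped, so the separation was that of Evc2.

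**Figure D3:**
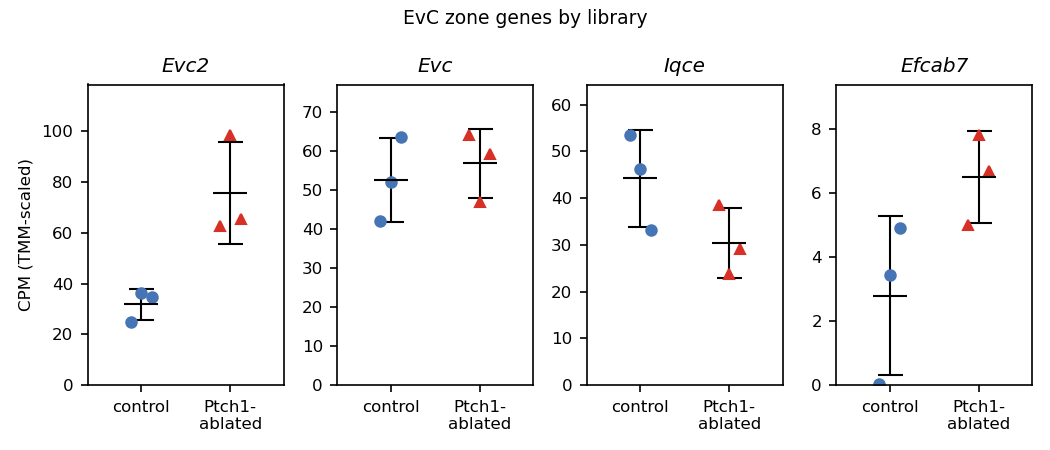
CPM (TMM-scaled) of the 4 EvC zone genes in each library, with group mean and SD (n = 3). Evc2 is at 24.7 to 36.1 CPM in control (circles) and 62.7 to 98.7 CPM in Ptch1-ablated libraries (triangles), whereas the groups overlap for Evc and Iqce.

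None of the 11 IFT-B genes, which encode the outward-moving part of the train, passed the test, and 7 of them had an interval within 2-fold. Ift20, a small subunit that also sorts cargo at the Golgi, was the most abundant at 67.6 TPM, with 764, 598 and 696 counts in control and 510, 612 and 673 in Ptch1-ablated keratocytes. Scaled to CPM its groups did not overlap, at 32.3 ± 2.41 and 24.9 ± 2.83 CPM (SD, n = 3 per group), and the fitted log2 fold change was -0.37 ± 0.22 (SE, adjusted p by edgeR = 0.386). Ift27, the small GTPase subunit that links the train to BBSome exit, had the smallest p of the group, with 642, 523 and 447 counts in control and 440, 236 and 508 in Ptch1-ablated keratocytes. These overlapped, and the log2 fold change was -0.64 ± 0.31 (SE, adjusted p by edgeR = 0.287). The least abundant, Ift57, had 10, 56 and 97 counts in control and 57, 65 and 37 in Ptch1-ablated keratocytes, and its interval of -2.14 to 1.75 does not exclude a change of over 2-fold in either direction. Among the others, subunits with more counts were held more tightly. Ift46 had an interval of -0.51 to 0.32, Ift52 of -0.55 to 0.28 and Ift172, the largest peripheral subunit, of -0.58 to 0.40. Ift88, whose hypomorphic mutation is the classical mouse model of defective cilia, had 104 to 165 counts in control and 145 to 185 in Ptch1-ablated libraries (log2 fold change 0.10 ± 0.43, SE).

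No gene of returning transport passed the test, and the groups overlapped for each. Of the 3 IFT-A genes, Ift140, a core subunit, had the smallest p and the lowest level, with 918, 598 and 978 counts in control and 596, 915 and 577 in Ptch1-ablated keratocytes (log2 fold change -0.41 ± 0.25, SE, adjusted p by edgeR = 0.414). Ift43 was the most abundant at 61.0 TPM and had 223, 278 and 376 counts in control and 309, 505 and 507 in Ptch1-ablated keratocytes. Its groups overlapped and its log2 fold change was 0.41 ± 0.32 (SE, adjusted p by edgeR = 0.528). Ift122, an IFT-A subunit whose loss is known to raise Hedgehog signaling in mouse embryos, was at -0.01 ± 0.25 (SE), with an interval of -0.55 to 0.53.

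Kinesin-2 drives the trains outward. Kif3a, its motor subunit, had 904, 985 and 1334 counts in control and 1310, 1586 and 1680 in Ptch1-ablated keratocytes (log2 fold change 0.33 ± 0.19, SE, adjusted p by edgeR = 0.386). Kif3b, the other motor subunit, had 315, 212 and 317 counts in control and 284, 311 and 639 in Ptch1-ablated keratocytes, and its log2 fold change of 0.37 ± 0.35 (SE, adjusted p by edgeR = 0.623) rested on Ptch1-ablated replicate 3, being -0.06 without it. Dync2h1, the heavy chain of the dynein that returns the trains, had 1291, 1034 and 1109 counts in control and 784, 985 and 1244 in Ptch1-ablated keratocytes (log2 fold change -0.37 ± 0.21, SE, adjusted p by edgeR = 0.358). Neither direction of motor passed the test, and the groups overlapped for all 3 genes.

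The BBSome is a coat that removes receptors such as GPR161 from the cilium, and Arl6 is the GTPase that recruits it to membranes. The group of 9 genes held 6 BBSome subunits, the chaperonin-like Bbs10 and Bbs12 that assemble it, and Arl6. None of them passed the test, and no interval lay within 2-fold. Bbs4 had 1115, 555 and 737 counts in control and 434, 469 and 719 in Ptch1-ablated keratocytes. Its groups did not overlap in CPM, at 37.5 ± 11.9 and 22.5 ± 5.66 (SD, n = 3 each), and its log2 fold change was -0.74 ± 0.28 (SE, unadjusted p = 0.0224, adjusted p by edgeR = 0.150), or -0.45 without control replicate 1. Bbs2, another core subunit, had 818, 517 and 532 counts in control and 447, 379 and 569 in Ptch1-ablated keratocytes, did not overlap in CPM either, and had a log2 fold change of -0.60 ± 0.27 (SE, unadjusted p = 0.0452, adjusted p by edgeR = 0.229), or -0.38 without control replicate 1. The ratio of the pair overlapped between the groups, Bbs4 over Bbs2 in TPM being 1.38 ± 0.180 in control and 1.25 ± 0.167 in Ptch1-ablated keratocytes (SD, n = 3 each).

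Arl6 lay on the other side. It had 348, 199 and 326 counts in control and 463, 470 and 513 in Ptch1-ablated keratocytes, or 13.6 ± 2.82 and 20.1 ± 0.476 CPM (SD, n = 3 each), and was the most abundant of the group at 28.7 TPM. The groups did not overlap. Its log2 fold change was 0.57 ± 0.28 (SE, adjusted p by edgeR = 0.285), and it passed the test only with limma on log2(TPM + 1) and log2(TPM + 0.1), at 0.79 and 0.81. Bbs5, a BBSome subunit, was also higher without overlap. It had 37, 44 and 103 counts in control and 126, 115 and 129 in Ptch1-ablated keratocytes. The log2 fold change of Bbs5 was 0.86 ± 0.61 (SE, adjusted p by edgeR = 0.489). Bbs1, the subunit that Arl6 binds, was the least abundant of the group at 2.27 TPM, with 260, 139 and 91 counts in control and 147, 85 and 44 in Ptch1-ablated keratocytes. They overlapped, and the log2 fold change was -0.99 ± 0.60 (SE, adjusted p by edgeR = 0.396). It was -0.54 without control replicate 1 and -1.52 without Ptch1-ablated replicate 1.

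The chaperonin-like pair depended on single libraries with almost no counts, and was singled out after its values were seen. Bbs12 had 2, 70 and 79 counts in control and 108, 161 and 119 in Ptch1-ablated keratocytes, with a log2 fold change of 1.17 ± 0.92 (SE, adjusted p by edgeR = 0.542) and of 0.60 without control replicate 1. Bbs10 had 71, 50 and 143 counts in control and 75, 0 and 93 in Ptch1-ablated keratocytes, where the 0 allows up to 3 counts or 0.127 CPM. Its log2 fold change was -0.81 ± 1.15 (SE, adjusted p by edgeR = 0.773) and -0.22 without Ptch1-ablated replicate 2.

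Import of lipidated and membrane proteins runs through Arl13b, Arl3, Inpp5e and Tulp3, none of which passed the test. Arl13b, the ciliary GTPase that activates ARL3 and retains the phosphatase INPP5E in the cilium, had 237, 275 and 369 counts in control and 297, 577 and 416 in Ptch1-ablated keratocytes (log2 fold change 0.38 ± 0.33, SE, adjusted p by edgeR = 0.586, and 0.09 without Ptch1-ablated replicate 2). Arl3, which releases lipidated cargo, was the most abundant of all 49 genes and had 415, 431 and 535 counts in control and 669, 337 and 643 in Ptch1-ablated keratocytes (log2 fold change 0.08 ± 0.29, SE). Tulp3, the adaptor that brings GPR161 into the cilium with IFT-A, had 337, 351 and 172 counts in control and 250, 521 and 161 in Ptch1-ablated keratocytes (log2 fold change -0.08 ± 0.47, SE). All 3 overlapped between the groups. Inpp5e, which keeps PI(4,5)P2 low in the ciliary membrane, had an interval of -0.25 to 0.74.

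Of the 12 transition zone genes 10 were fitted lower in Ptch1-ablated keratocytes, beside 49.6% of all tested genes. None passed the test, and the median log2 fold change was -0.40. With library totals alone the median was -0.24 and 9 of 12 were below 0, beside 36.7% of all tested genes. Their summed CPM was 308 to 342 in control and 257 to 271 in Ptch1-ablated libraries, which did not overlap. With library totals alone the sums were 289.5 to 332 and 271.1 to 293.9 CPM and overlapped. The summed keratocyte markers moved in the same direction, and their part in this difference was not tested.

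Tctn1, a tectonic protein needed for full Hedgehog responses in mouse embryos, came nearest to the threshold after Evc2. It had 1879, 1220 and 1654 counts in control and 1421, 1105 and 1020 in Ptch1-ablated keratocytes. The groups overlapped in counts but not in CPM, at 74.3 ± 11.1 and 49.5 ± 10.0 (SD, n = 3 per group), and the fitted log2 fold change was -0.58 ± 0.20 (SE, 95% interval -1.03 to -0.14, unadjusted p = 0.0144, adjusted p by edgeR = 0.114). Over the alternative fits the adjusted p of Tctn1 was 0.0600 to 0.330. B9d2, a subunit of the B9 complex and the most abundant transition zone gene at 51.0 TPM, had 548, 341 and 417 counts in control and 312, 376 and 478 in Ptch1-ablated keratocytes (log2 fold change -0.34 ± 0.28, SE, adjusted p by edgeR = 0.567). Cep290, which links the transition zone microtubules to the membrane, was the least abundant at 3.47 TPM and had 272, 311 and 403 counts in control and 260, 249 and 271 in Ptch1-ablated keratocytes. Its groups did not overlap in CPM, and its log2 fold change was -0.51 ± 0.30 (SE, adjusted p by edgeR = 0.385).

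Outside the rule for naming genes, Tmem216 and Cc2d2a were singled out because their groups did not overlap either. Tmem216, a tetraspan protein of the MKS module, had 330, 337 and 456 counts in control and 240, 252 and 324 in Ptch1-ablated keratocytes (log2 fold change -0.64 ± 0.29, SE, adjusted p by edgeR = 0.245). Cc2d2a, a C2-domain protein of the same module, went the other way with 600, 587 and 594 counts in control and 827, 942 and 848 in Ptch1-ablated keratocytes (log2 fold change 0.37 ± 0.21, SE, adjusted p by edgeR = 0.358).

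At the basal body none of 3 genes passed the test. Ofd1, a centriolar protein, had 318, 173 and 241 counts in control and 136, 224 and 143 in Ptch1-ablated keratocytes (log2 fold change -0.70 ± 0.38, SE, adjusted p by edgeR = 0.345). Cep164, the distal appendage protein that docks the mother centriole to the membrane, had 467, 595 and 511 counts in control and 506, 753 and 465 in Ptch1-ablated keratocytes (log2 fold change -0.05 ± 0.28, SE). Ttbk2, the kinase that CEP164 recruits to start ciliogenesis, had 524, 314 and 236 counts in control and 327, 549 and 412 in Ptch1-ablated keratocytes (log2 fold change 0.08 ± 0.35, SE). All 3 overlapped between the groups, and the intervals of Cep164 and Ttbk2 lay within 2-fold.

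Other genes of the cilium, 95 in the table and 89 tested, were read from lists made by known role. Of these, 5 passed the test, 2 higher (4.68% of all tested genes were higher) and 3 lower (3.8%), and the median log2 fold change was 0.02. DESeq2 called 11 of the 89 (12.4%) and 12.5% of all tested genes. Adcy5, an adenylyl cyclase that can reside in cilia and makes cAMP, which restrains Hedgehog signaling through protein kinase A, had 649, 327 and 403 counts in control and 1416, 1960 and 1124 in Ptch1-ablated keratocytes. Every Ptch1-ablated library was higher (log2 fold change 1.55 ± 0.29, SE, adjusted p by edgeR = 0.00514). Asap1, an ARF GTPase-activating protein that takes part in sorting rhodopsin to cilia, had 2373, 1565 and 2160 counts in control and 4716, 4856 and 4120 in Ptch1-ablated keratocytes, and again the groups did not overlap (log2 fold change 1.00 ± 0.16, SE, adjusted p by edgeR = 0.00204).

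The 3 that fell act in BBSome regulation, in ciliary kinase signaling and with ARL2 and ARL3. Lztfl1, which restrains entry of the BBSome into the cilium, had 3796, 3486 and 4969 counts in control and 1960, 2814 and 2393 in Ptch1-ablated keratocytes (log2 fold change -0.94 ± 0.17, SE, adjusted p by edgeR = 0.00454). Arl2bp, a binding partner of ARL2 and ARL3, had 798, 559 and 741 counts in control and 415, 213 and 303 in Ptch1-ablated keratocytes (log2 fold change -1.34 ± 0.29, SE, adjusted p by edgeR = 0.0124, and 0.0606 without Ptch1-ablated replicate 3). Cdk20, a kinase of ciliary length control, had 1223, 1687 and 1810 counts in control and 1013, 865 and 990 in Ptch1-ablated keratocytes. Its groups did not overlap (log2 fold change -0.90 ± 0.21, SE, adjusted p by edgeR = 0.0176), but the call was lost on leaving out control replicate 2 (-0.76), control replicate 3 (-0.86), Ptch1-ablated replicate 2 (-0.84) or Ptch1-ablated replicate 3 (-0.91).

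**Figure D4:**
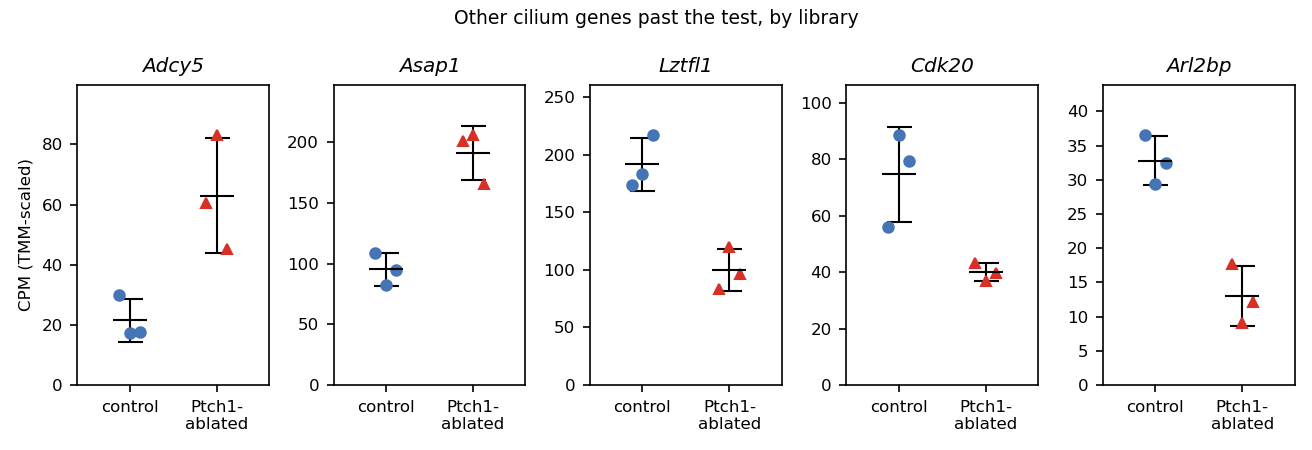
CPM (TMM-scaled) in each library of the 5 further cilium genes past an adjusted p of 0.05, with group mean and SD (n = 3). Adcy5 and Asap1 are higher and Lztfl1, Cdk20 and Arl2bp lower in every Ptch1-ablated library (triangles) than in any control library (circles).

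Genes linked to disassembly of the cilium, and the tubulin Tubb4b, were read beside these, since cilia are resorbed when cells enter the cycle. Of these 12 genes 2 passed the test (8.48% of all tested genes did), both higher (4.68%). Nedd9, the scaffold that activates Aurora A at the basal body, had 426, 911 and 723 counts in control and 1923, 1719 and 1543 in Ptch1-ablated keratocytes (log2 fold change 1.13 ± 0.29, SE, adjusted p by edgeR = 0.0293). Tubb4b, a beta-tubulin of axonemes and cytoplasm, had 4099, 3487 and 3793 counts in control and 5966, 5726 and 6582 in Ptch1-ablated keratocytes (log2 fold change 0.50 ± 0.13, SE, adjusted p by edgeR = 0.0339). Aurka, the kinase itself, was at 0.51 ± 0.73 (SE) and Hdac6, the tubulin deacetylase it activates, at 0.04 ± 0.27 (SE). Proliferation genes had low counts, and their summed CPM was 10.9 to 17.9 in control and 24.3 to 52.7 in Ptch1-ablated libraries, without overlap. Of 14 tested, 12 were fitted higher (median log2 fold change 1.44) and 2 lower, where 49.6% of all tested genes were fitted lower. At an unadjusted p under 0.05 there were 3 (20.6% of all tested genes), and 1 passed the test (8.48% of all tested genes). The gene that passed was Ccnb1, with 217 of its counts in Ptch1-ablated replicate 2. Top2a, a topoisomerase of dividing cells, was next at 2.89 (adjusted p by edgeR = 0.0527). The part of dividing cells in the values of the cilium genes was not tested.

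Markers of cells with motile cilia were read as well. Of these 17 were in the table, 7 passed the filter on low counts and none passed the edgeR test or had an unadjusted p under 0.05, with summed CPM of 21.5 to 31.3 in control and 17.5 to 27.3 in Ptch1-ablated libraries. Much of the sum was Tppp3, with 247 to 305 counts in control and 163 to 436 in Ptch1-ablated libraries. Foxj1, the master regulator of motile ciliogenesis, had 8, 12 and 7 counts in control and 28, 39 and 40 in Ptch1-ablated keratocytes. Ccdc39, a protein of motile axonemes, had 48 to 124 counts over all libraries. The axonemal dynein Dnah11 had 99 counts in control replicate 1 and at most 2 in any other library, while Dnah5 and Dnah9 had at most 1 in any library. Markers of other cells of the cornea differed between the groups. Summed CPM of the corneal epithelium list was 54.2 to 75.7 in control and 2.68 to 10.0 in Ptch1-ablated libraries. Of its 7 tested genes 4 fell past the test (Krt5, Krt14, Krt15 and Krt19), beside 3.8% of all tested genes. Krt12, the keratin of differentiated corneal epithelium, went the other way. It was at 0 counts in the 3 control libraries and rose to 21, 49 and 52 in the Ptch1-ablated libraries. The summed CPM of mural cells was 945 to 1125 and 1371 to 1451, that of leukocytes 2490 to 2626 and 3243 to 3260 and that of Schwann cells 292 to 317 and 371 to 416. Most of the leukocyte sum was Cd74, at 1589 ± 115 CPM in control and 2307 ± 115 CPM in Ptch1-ablated libraries (SD, n = 3 per group). Of the 9 leukocyte markers 2 passed the test (Cd74 and Itgam, both higher), beside 8.48% of all tested genes, and 4 were fitted lower. Vascular endothelium markers summed to 633 to 864 and 818 to 875, and 5 of 8 were higher past the test, beside 4.68% of all tested genes. The largest part of that sum was Kdr, which had a log2 fold change of -0.40 (unadjusted p = 0.0140, adjusted p by edgeR = 0.112) and did not overlap between the groups either. The part of these cells in the values of the cilium genes was not tested. Corneal endothelium markers summed to 873 to 995 and 670 to 1027 CPM, carried by Col8a2. Of 6 tested, Col8a1 rose (log2 fold change 2.31, adjusted p by edgeR = 9.8e-05), and Slc4a11, a transporter of these cells, was at 2.12 (adjusted p by edgeR = 0.0541) with no overlap. Melanocyte markers summed to 18.1 to 23.0 and 14.6 to 19.1 CPM.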

How the data were processed

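RNA of sorted corneal keratocytes was measured in 6 libraries, 3 per group, with groups and replicate numbers taken from the sample titles. Per the labels a TruSeq kit was used, while the study's methods describe ribosomal RNA depletion and BGISEQ-500 sequencing, and the sources do not settle which. The authors aligned reads with Bowtie2 (2.2.5) and deposited RSEM (1.2.12) expected counts per gene, without normalization, of which 18.6% were not whole. The deposited TPM were scaled by the authors for length, with a common sum in each library. The deposited FPKM, scaled by the authors for length and library, and the group averages were not used. The submitters' processing notes list mm9 without a role. Annotation and strandedness are not given in the sources used here, so overlapping genes are uncertain.

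Expected counts were first rounded. After filterByExpr and TMM scaling, groups were compared by edgeR's quasi-likelihood test (edgeR 4.0.16, R 4.3.3, two-sided, no covariate) and p-values were adjusted by Benjamini-Hochberg over 13888 genes. CPM are per 1000000 TMM-scaled counts. SEs were derived from the F statistic. A count of 0 allows up to 3 counts, for counting error only. With 3 libraries per group an exact permutation test cannot go below p = 0.1, so none was used. Within each group, replicates differed by a chi-square of at least 33.8 per degree of freedom, which is more than counting error alone. This cannot tell separate animals from separate preparations of the same RNA. Scripts were tested on simulated data. The edgeR test recovered 0 of 66 genes with a simulated log2 change of 0.5, 16 of 64 with 1 and 44 of 66 with 2. Of the genes simulated without change, 5 were called. Not passing the test thus does not show that a gene was unchanged. Alternatives were DESeq2 (1.42.0), other scalings and filters, limma (3.58.1) on log2(TPM + 1) or log2(TPM + 0.1), each library left out and the replicate block.

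The cilium genes, the further lists and the tests were chosen with earlier results of these data known. Genes were named by rule: those with an adjusted p of at most 0.05 or an unadjusted p under 0.05, in each role group the smallest p and the highest and lowest mean TPM, and of the further cilium genes those past the test. Evc, Iqce, Bbs5, Bbs10, Bbs12, Tmem216, Cc2d2a and those given only by interval or range were named after their values were seen. Identifiers matched RefSeq for 17478 of 17606 genes. Promoter windows come from RefSeq (GRCm38.p6).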

Additional observations from a re-analysis of the deposited data

How the results depend on the processing

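The count of 1 cilium gene past the test held in 13 of the 15 alternative fits, and it was 2 with limma on TPM at either pseudocount (1 or 0.1), where Arl6 joined Evc2 and the count of the BBSome group became 1. The median log2 fold change of the 49 genes moved to 0.0719 with library totals only, 0.108 with log2(TPM + 1) and 0.110 with log2(TPM + 0.1). The median of all tested genes moved too, to 0.17, 0.19 and 0.22, so the cilium genes stayed below it in each fit. Without 1 library at a time the median was -0.203 (without control replicate 3) to -0.0807 (without control replicate 2), and -0.197 without Ptch1-ablated replicate 2. The further cilium genes past the test, 5 in the reported fit, were 11 with DESeq2, 8 with library totals only and 8 with log2(TPM + 1), where 12.5%, 10.2% and 11.7% of all tested genes passed, beside 8.48%, and 4 to 6 without 1 library at a time. Lztfl1 (-0.74) and Cdk20 (-0.67) were not past the threshold with log2(TPM + 0.1). The cause of these moves was not tested. Same-numbered libraries deviated from their group means with correlations across genes of -0.05, -0.05 and 0.04. These gave no sign that the numbers pair the samples, which 3 libraries per group cannot exclude. With a replicate block the cilium genes past the test numbered 1 (Evc2), their median was -0.0772 and 6 further cilium genes passed. None of the 4 cilium genes with a mean under 100 counts had an interval within 2-fold, and depth was not separated from the spread between replicates.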
